A study of Homo sapiens with 12 samples.

Results

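The clustered protocadherins are 53 neighbouring genes on human chromosome 5 that encode cell-surface adhesion proteins. They were taken from the deposited count table by symbol: every gene on chromosome 5 named PCDHA, PCDHAC, PCDHB, PCDHGA, PCDHGB or PCDHGC with a number, without the 6 pseudogenes, which gave 53 of 60648 genes. The alpha cluster held 15 members (13 variable genes, PCDHAC1 and PCDHAC2), the beta cluster 16, and the gamma cluster 22 (12 PCDHGA, 7 PCDHGB and 3 PCDHGC genes). On GRCh38 the alpha members lay at chr5:140786136-141012347, the beta members at chr5:141051374-141249365 and the gamma members at chr5:141330514-141512979, all on the plus strand.

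The study compared HCT116 cells, an established human colon carcinoma line, that were wild type for MTHFD2 or carried a CRISPR-Cas9 knock-out of it. MTHFD2 is a folate enzyme best known from mitochondria. Both genotypes were harvested at an initial time, right after the knock-out had been made, and at a final time after 2 months of culture. Poly-A RNA was sequenced from 3 libraries in each of the 4 groups, called biological replicates by the submitters: wild type initial, wild type final, knock-out initial and knock-out final. The knock-out was a single clone. Features of that clone and the loss of MTHFD2 therefore cannot be told apart, and p-values measure the spread between these libraries only.

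Each alpha or gamma gene has its own promoter and a large first exon that encodes the extracellular cadherin repeats, the transmembrane stretch and part of the cytoplasmic tail, and this exon is spliced to constant exons shared by its whole cluster. Beta genes are single-exon genes without constant exons. In neurons the variable promoters are chosen in different combinations from cell to cell, with CTCF and cohesin looping a promoter to a distant enhancer. The proteins bind identical isoforms on the facing cell and serve in neuronal self-recognition. The C-type members at the end of the alpha and gamma clusters are known for a regulation unlike that of the variable genes. In several carcinomas the clusters are known targets of DNA methylation.

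The conserved element of these promoters has the core letters CGCT, which most members have in common near the start. Stretches around a CGCT are therefore printed for the 7 tested members described most closely and for a silent alpha gene, PCDHA2. They are RefSeq sequences (GRCh38.p14, plus strand), 54 bases each, ending upstream of the RefSeq transcription start. Capitals mark CGCT, or GGCGCT where the 2 letters before it are GG. A CGCT alone does not show the conserved element. Of 35116 RefSeq promoters, 28.1% held CGCT on the sense strand in the 100 bases before the start. Whether the CGCT printed or counted for a member, PCDHAC2 included, is that element was not tested.
PCDHA2, chr5:140794772-140794825: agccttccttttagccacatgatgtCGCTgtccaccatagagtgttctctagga
PCDHAC1, chr5:140926245-140926298: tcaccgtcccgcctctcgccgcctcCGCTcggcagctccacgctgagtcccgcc
PCDHAC2, chr5:140966410-140966463: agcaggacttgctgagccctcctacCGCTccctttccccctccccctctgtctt
PCDHB10, chr5:141192290-141192343: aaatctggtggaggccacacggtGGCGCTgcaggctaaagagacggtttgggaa
PCDHB13, chr5:141213856-141213909: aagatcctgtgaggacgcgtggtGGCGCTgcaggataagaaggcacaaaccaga
PCDHB14, chr5:141223254-141223307: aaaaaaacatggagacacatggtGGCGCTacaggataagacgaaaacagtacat
PCDHGA9, chr5:141402705-141402758: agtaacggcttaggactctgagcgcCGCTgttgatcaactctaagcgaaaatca
PCDHGA10, chr5:141412922-141412975: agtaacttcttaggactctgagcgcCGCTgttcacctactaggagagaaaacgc

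RefSeq promoter sequences were found for 47 of the 53 members, each running from 250 bases before the start to 50 after it. CGCT was present in the 100 bases before the start, on the sense strand, in 44 of 47 members (93.6%), against 28.1% of 35116 RefSeq promoters. This held in each cluster, with 12 of 13 alpha, 13 of 14 beta and 19 of 20 gamma promoters. The longer GGCGCT, which contains CGCT, was found in this window in 12 of 14 beta promoters (85.7%), against 2 of 20 gamma promoters, 0 of 13 alpha promoters and 4.9% of all promoters. The window of 100 bases was chosen after matches had been seen. In the whole 300 bases and on both strands, 46 of 47 members held CGCT (97.9%, against 70.0% of all promoters), and 22 of 47 held GGCGCT (46.8%, against 21.7%). Over these 300 bases GGCGCT was in 13 of 14 beta, 8 of 20 gamma (40.0%) and 1 of 13 alpha promoters. A CTCF core written as CC, any 3 bases, AGG, any base and GGC was found on either strand in 1 of 47 members (2.13%) and in 4.64% of all promoters. This fixed pattern allows no other letters, so these values do not show how many of the promoters hold a CTCF site. Where the window of 100 bases held several CGCT, the one nearest a set distance before the start was taken, here and in the printed stretches. The positions that follow thus partly reflect this choice. The CGCT so taken lay 16 to 73 bases before the start in alpha, where the 2 middle values of 12 were 41 and 47. The median was 61 in beta (range 11 to 84) and 49 in gamma (38 to 95). Among the printed stretches, PCDHGA9 and PCDHGA10 had the same letter at 42 of 54 positions. PCDHB13 matched PCDHB14 at 32 and PCDHB10 at 29 positions, and the PCDHAC1 and PCDHAC2 pair matched at 17. PCDHGB2 had no sense CGCT in this window and none is printed for it.

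As a check of the labels, MTHFD2 stood at 319 to 457 CPM, the count relative to the library's total after scaling for composition, in the 6 wild-type libraries and at 123 to 155 CPM in the 6 knock-out libraries, with no overlap. Library totals were 38597809 to 40017561 counts, and correlations of log2 values within a group were 0.9931 to 0.9988. The cells carried the markers of colon epithelium: EPCAM had at least 12245 counts in every library and CDH1 at least 4191, whereas VIL1 had at most 12. Of the neuron markers, STMN2, GAP43, ELAVL4 and NEFL had at most 2 counts in any library while SYT1 had at least 5100. Of the 8 fibroblast markers, DCN and LUM were at 0 throughout, while COL1A1, COL3A1 and PDGFRB had enough counts to be tested. Together the 8 summed to between 37.5 and 78.8 CPM per library.

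Few clustered protocadherins were transcribed at a measurable level in these cells, and 3 of them made up most of the signal. The 53 members together took 1144 to 1636 counts per library. Over the 12 libraries they summed to 16555 counts, of which PCDHGA10, PCDHAC2 and PCDHAC1 held 79.7%. The gamma cluster gave 57.0% of the member counts, alpha 37.0% and beta 6%. A filter that asked for 0.253 CPM (10 counts in a library of median size) in at least 3 libraries was passed by 13 members: 2 of 15 alpha, 3 of 16 beta and 8 of 22 gamma genes. These 13 held 93.9% of the member counts. Another 36 members had counts in at least 1 library but stayed below the filter, with at most 16 counts in any library, and 19 of the 40 members below the filter never exceeded 3 counts. PCDHA1, PCDHA2, PCDHA13 and PCDHB6 had 0 counts in all 12 libraries. A count of 0 allows up to 3 counts, or 0.0733 to 0.0814 CPM depending on the library, so PCDHA2, PCDHA13 and PCDHB6 were not detectable at this depth. Of the 5595 exonic bases of PCDHA1, only 7 were covered by no other gene on either strand, and 2726 by no other gene on its own strand. Strandedness of the counting was not given, so its 0 does not show whether PCDHA1 was transcribed.

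**Figure D1:**
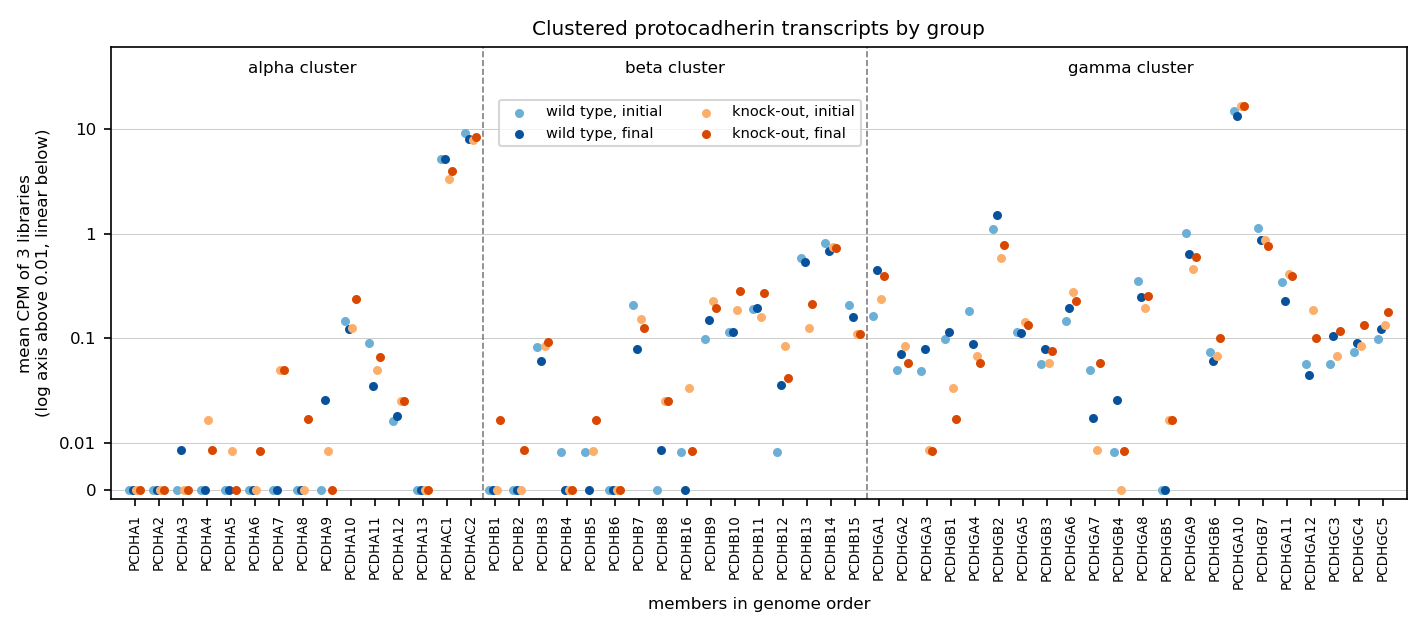
Mean CPM of each member in genome order, with 1 point per group (n = 3 libraries), on an axis that is logarithmic above 0.01 and linear below. PCDHAC1 and PCDHAC2 stand apart in alpha and PCDHGA10 in gamma, while most variable alpha members lie at or near 0.

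Shared exons shape these counts. In the gene models of the table, 2869 bases belonged to all 15 alpha members and 2177 bases to all 22 gamma members, while no base was common to all beta members. The median member shared 49.5% of its exonic bases with another gene in alpha, 43.8% in gamma and 5.3% in beta. PCDHA2 had 0 counts although 3431 of its 6057 exonic bases were shared and PCDHAC2 took at least 261 counts in every library, so reads in the shared exons had not been given to every gene that contains them. The alpha and gamma counts thus leave out transcript that the beta counts would include. Levels between genes were therefore compared per kilobase of exon not shared with any other gene.

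On that scale PCDHGA10 was the highest member, at 3.41 CPM per unique kilobase averaged over all libraries, followed by PCDHAC2 at 2.53 and PCDHAC1 at 1.05. The step from PCDHAC2 to PCDHAC1 was wider than the spread within any group: in wild type initial the levels were 2.80 ± 0.0809 and 1.23 ± 0.170 (SD, n = 3). Next came PCDHGB2 (0.378), PCDHGB7 (0.326) and PCDHGA9 (0.249), which were within the spread of each other in wild type initial, at 0.422 ± 0.118, 0.408 ± 0.0859 and 0.373 ± 0.0755. PCDHB14 was the highest beta gene at 0.174, and PCDHGA11 (0.0951), PCDHGA1 (0.0755) and PCDHB13 (0.0720) closed the first 10. Several of these orders depended on the group. PCDHGB2 was above PCDHGB7 in wild type final (0.572 ± 0.122 and 0.310 ± 0.0747) and below it in knock-out initial (0.220 ± 0.0617 and 0.314 ± 0.0424). PCDHGA9 stood at the level of PCDHB14 in knock-out initial (0.170 ± 0.0255 and 0.174 ± 0.00543). PCDHGA11, at 0.0628 ± 0.00739, was below both PCDHGA1 (0.109 ± 0.0297) and PCDHB13 (0.106 ± 0.0232) in wild type final. PCDHB13 stood at 0.115 ± 0.0296 in wild type initial, above PCDHGA1 at 0.0398 ± 0.0190, and at 0.0249 ± 0.0131 in knock-out initial, below PCDHGA1 at 0.0571 ± 0.00886. Per kilobase of the deposited gene length, PCDHGA10 lay at percentile 47.4 of the tested genes, PCDHAC2 at 39.4, PCDHAC1 at 28.1 and the other 10 tested members between 0.7 and 13.2. That length includes the shared exons, so these percentiles are too low for alpha and gamma members. PCDHGA10 stood at 2.29 CPM per deposited kilobase and 3.41 per unique kilobase, PCDHAC2 at 1.35 and 2.53, and PCDHAC1 at 0.623 and 1.05, where the median of all tested genes was 2.69 per deposited kilobase.

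Each cluster was thus led by 1 or 2 genes. PCDHAC2 and PCDHAC1, the C-type genes, held 97.7% of the alpha counts, and the 13 variable alpha genes together had 138 counts in 12 libraries. PCDHA10 was the highest of these with 2 to 12 counts per library, and PCDHA11 followed with 0 to 8. The gamma cluster showed no such weight on its C-type genes: PCDHGC3, PCDHGC4 and PCDHGC5 had at most 10 counts in any library, and a single variable gene, PCDHGA10, held 76.39% of the gamma counts. The beta counts were spread more evenly, with 35.11% in PCDHB14 and 17.3% in PCDHB13. PCDHB11, with 2 to 16 counts, PCDHB9, with 2 to 11, and PCDHB15 and PCDHB7, each with 2 to 9, were counted in every library but did not pass the filter.

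The summed levels of alpha and beta were apart between genotypes at the initial harvest only, and those of gamma at neither harvest. The alpha members summed to 14.7, 13.5 and 15.3 CPM in wild type initial, 13.1, 11.9 and 14.7 in wild type final, 11.8, 12.4 and 10.1 in knock-out initial, and 11.6, 12.96 and 13.4 in knock-out final. All 3 initial knock-out libraries were below all 3 initial wild-type libraries, while the final groups overlapped. The beta members summed to 2.59, 2.05 and 2.33 CPM in wild type initial, 2.33, 2.01 and 1.71 in wild type final, 1.99, 1.98 and 1.84 in knock-out initial, and 2.29, 2.30 and 1.81 in knock-out final. Beta sums also did not overlap between genotypes at the initial harvest and overlapped at the final harvest. The gamma sums were 22.7, 17.5 and 20.1 in wild type initial, 21.2, 17.3 and 16.2 in wild type final, 21.8, 22.4 and 17.3 in knock-out initial, and 19.8, 22.8 and 20.3 in knock-out final, with overlap at both harvests. The ratio of knock-out to wild-type means was 0.785 for alpha, 0.834 for beta and 1.019 for gamma at the initial harvest, and 0.958, 1.057 and 1.151 at the final harvest. No sum separated the 2 harvests within a genotype. In such bulk samples fewer cells with a transcript and less of it per cell cannot be told apart. The gamma sum was mostly PCDHGA10. Without that gene the log2 ratio of knock-out to wild type was -0.39 initially and -0.20 at the final harvest, against 0.03 and 0.20 with it.

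**Figure D2:**
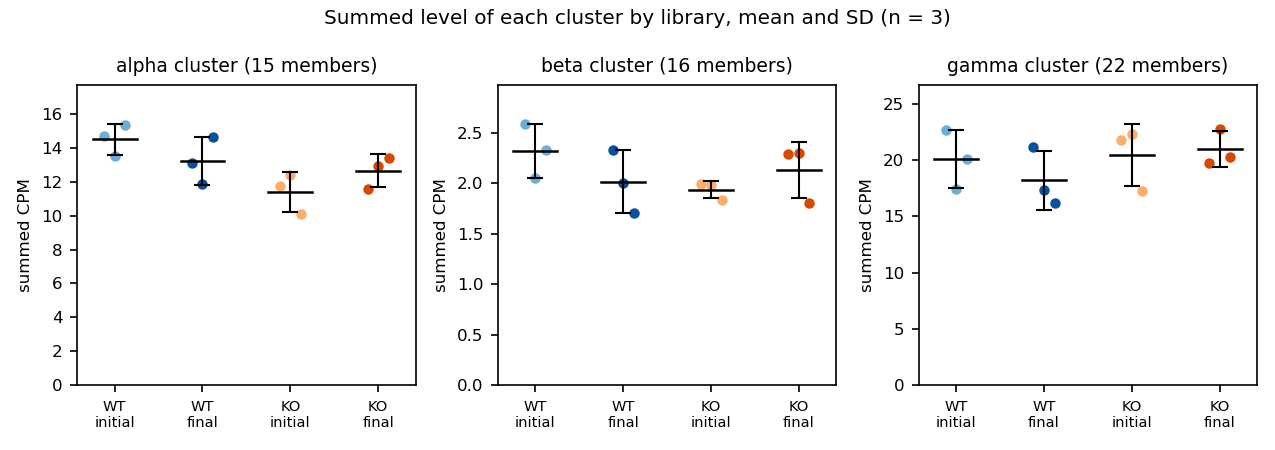
Summed CPM of each cluster in every library (points), with the group mean and SD (n = 3) in black. The initial knock-out libraries lie below the initial wild-type libraries in alpha and beta, and the groups overlap in gamma and at the final harvest.

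At the initial harvest, the question was how the new knock-out clone differed from wild type. PCDHAC1, PCDHB13, PCDHGB2 and PCDHGA9 were lower in the knock-out, and no member was higher. These 4 of 13 tested members stood against 19.9% of all 18289 tested genes called in either direction, 11.3% called lower and 8.55% called higher (edgeR's quasi-likelihood test, Benjamini-Hochberg adjusted p under 0.05). The median log2 fold change of the 13 members was -0.23 and that of all tested genes 0.00. For 8 tested members the libraries of both genotypes had separate ranges, against 35.5% of all tested genes. PCDHB13 and PCDHGA8 had passed the filter mainly through wild-type libraries, and PCDHB10 and PCDHGA6 through knock-out libraries alone, so counts over tested members are no support for a shift of the family.

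PCDHB13, a beta gene that shares no exonic base with another gene, had 31, 20 and 20 counts in wild type initial and 7, 6 and 2 in knock-out initial. Every knock-out library was below every wild-type library. The CPM means were 0.584 ± 0.150 and 0.126 ± 0.0662 (SD, n = 3), a log2 fold change of -2.18 (SE 0.418, edgeR adjusted p = 0.00138). No initial knock-out library met the filter minimum for PCDHB13, so the size of this fold change rests on few counts. PCDHGA9, a gamma A gene, had 36, 37 and 50 counts in wild type initial against 20, 20 and 15 in knock-out initial. The highest knock-out library was below the lowest wild-type library, and the level fell by 1.13 on the log2 scale (SE 0.233, edgeR adjusted p = 0.00245). PCDHAC1 had 216, 176 and 229 counts against 137, 142 and 117. The groups were again apart, with a log2 fold change of -0.62 (SE 0.148, edgeR adjusted p = 0.007). PCDHGB2, a gamma B gene, had 56, 31 and 48 counts against 29, 24 and 16. Its lowest wild-type library lay just above its highest knock-out library (0.766 and 0.731 CPM), and the log2 fold change was -0.93 (SE 0.267, edgeR adjusted p = 0.0208). This call was lost when WTT0 replicate 1 or 3 or KOT0 replicate 2 or 3 was left out, with adjusted p of 0.0889, 0.0729, 0.0595 and 0.105.

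The highest member of each cluster was not called. PCDHGA10 had 686, 548 and 568 counts in wild type initial and 694, 722 and 542 in knock-out initial, with overlapping ranges and a log2 fold change of 0.15 (SE 0.125, edgeR adjusted p = 0.442). PCDHAC2, the neighbour of PCDHAC1 40.2 kb downstream, had 368, 365 and 378 counts against 315, 341 and 269. In CPM its groups did not overlap (8.99 to 9.46 against 6.86 to 8.55), yet its log2 fold change of -0.23 (SE 0.120) had an adjusted p of 0.196 in edgeR's test and was not called. PCDHB14, which starts 9.4 kb downstream of PCDHB13, had 32, 31 and 35 counts against 30, 30 and 28, a log2 fold change of -0.12 (SE 0.215, edgeR adjusted p = 0.744). The remaining 6 tested members had log2 fold changes from -0.86 to 0.89 and none was called.

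**Figure D3:**
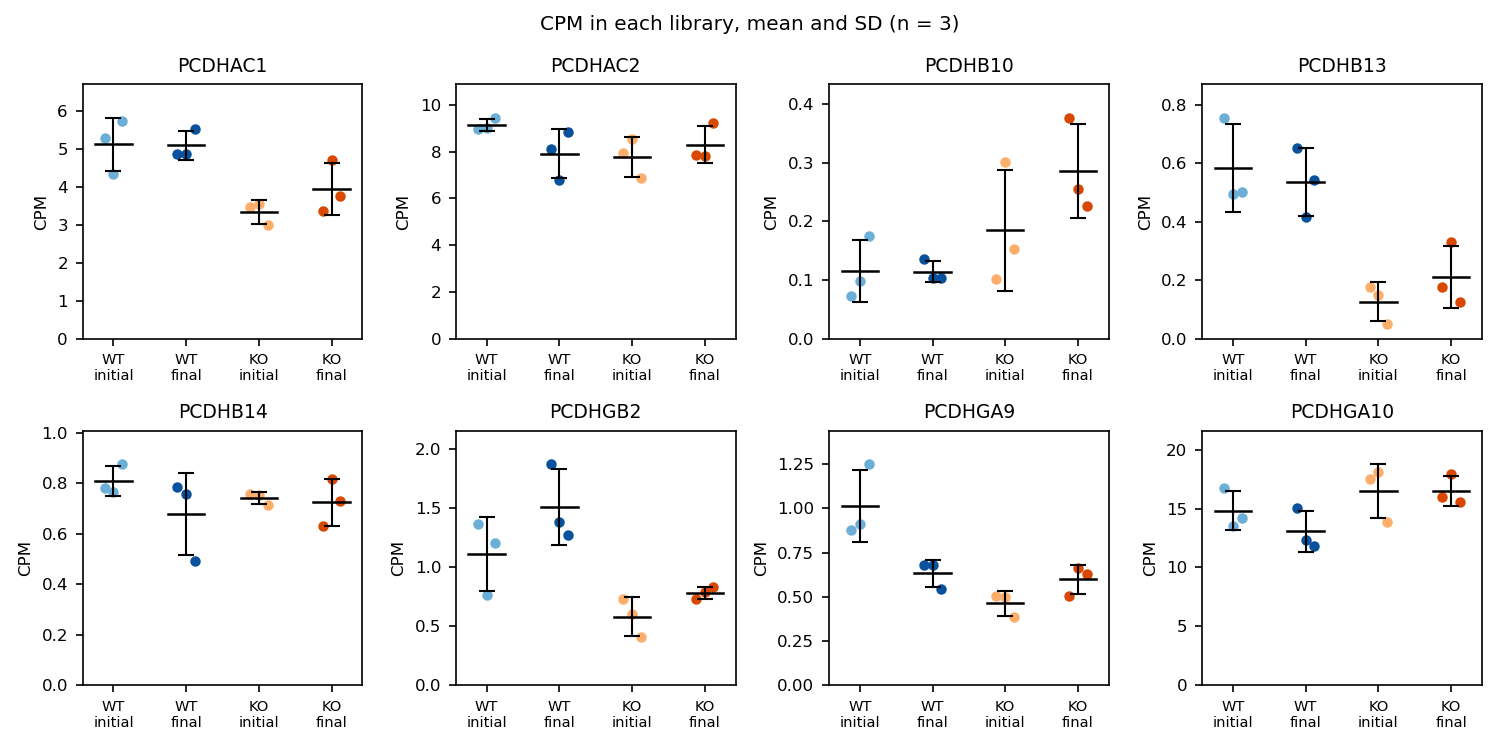
CPM of 8 members in each library (points), with the group mean and SD (n = 3) in black, each panel with its own axis from 0. PCDHB13 and PCDHGB2 are lower in the knock-out at both harvests, PCDHAC1 and PCDHGA9 are called lower at the initial and not at the final harvest, and PCDHAC2 and PCDHB14 are called in no comparison.

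After 2 months of culture, PCDHB13 and PCDHGB2 were lower in the knock-out, and no member was called higher. These 2 of 13 members compare with 18.5% of all tested genes called in either direction, 10.2% called lower and 8.38% called higher at the final harvest. The median log2 fold change of the members was 0.04 and that of all tested genes 0.00. PCDHB13 had 24, 16 and 21 counts in wild type final and 7, 13 and 5 in knock-out final. The groups did not overlap, at 0.537 ± 0.117 and 0.211 ± 0.107 CPM, and the log2 fold change was -1.34 (SE 0.387, edgeR adjusted p = 0.0229). PCDHGB2 had 69, 53 and 49 counts against 29, 31 and 33, again with no overlap, and a log2 fold change of -0.94 (SE 0.247, edgeR adjusted p = 0.013). Each call depended on single libraries. Without WTTF replicate 1, PCDHB13 had an adjusted p of 0.0795 and PCDHGB2 of 0.0624, and only PCDHGA10 was called. Without WTTF replicate 3, KOTF replicate 1 or KOTF replicate 3, PCDHB13 was lost (adjusted p 0.057, 0.0824 and 0.0918) and PCDHGB2 was the 1 member called. With plain library totals in place of scaling factors, PCDHB10 and PCDHGA10 were called higher as well, which made 4 members.

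PCDHAC1 had 179, 187 and 214 counts in wild type final and 134, 184 and 150 in knock-out final. In CPM the ranges stayed just apart (4.86 to 5.54 against 3.37 to 4.69), and the log2 fold change of -0.37 (SE 0.146) was not called (edgeR adjusted p = 0.0961). Without KOTF replicate 2 it was -0.51 and was called (edgeR adjusted p = 0.0317). PCDHGA9 had 25, 26 and 21 counts against 20, 26 and 25, a log2 fold change of -0.08 (SE 0.241, edgeR adjusted p = 0.864). PCDHGA10 had 556, 473 and 458 counts against 634, 704 and 621. All 3 knock-out libraries were above the wild type, but the log2 fold change of 0.33 (SE 0.126) missed the threshold (edgeR adjusted p = 0.0782). With the replicate number added to the model it was called (edgeR adjusted p = 0.0468). The replicate numbers do not pair the samples across all 4 groups, so that call adds no support. PCDHB10 had 5, 4 and 4 counts against 15, 10 and 9, also without overlap, and a log2 fold change of 1.30 (SE 0.465, edgeR adjusted p = 0.0634). PCDHAC2, with 299, 261 and 342 counts against 313, 306 and 368, and PCDHB14, with 29, 29 and 19 against 25, 32 and 29, overlapped between genotypes. In all, 6 of the 13 members had ranges that did not overlap, against 33.1% of all tested genes.

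**Figure D4:**
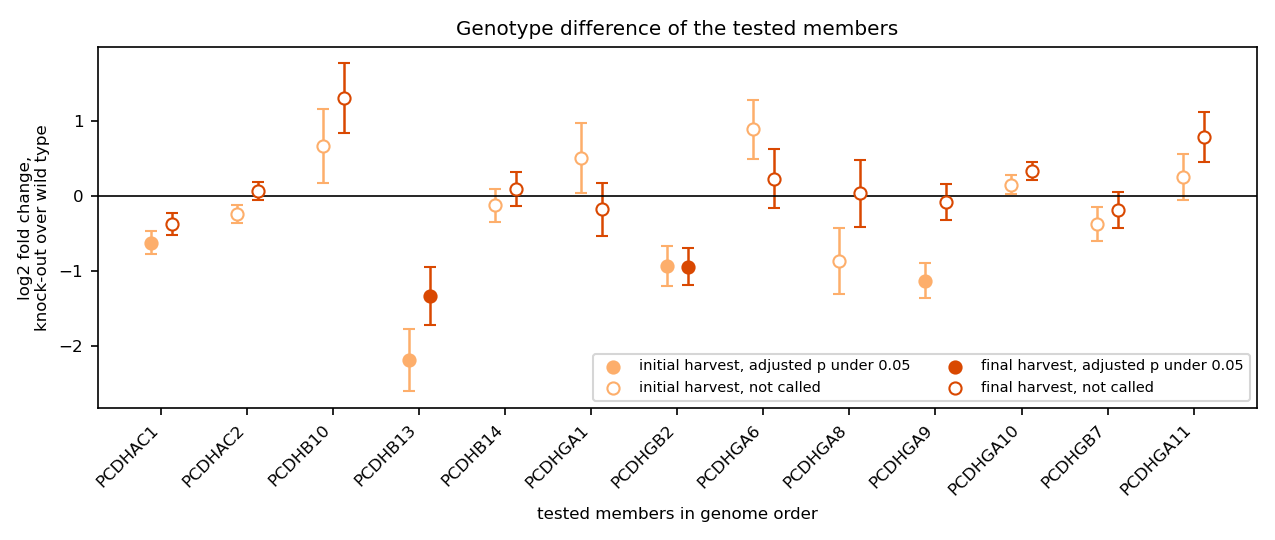
Log2 fold change of knock-out over wild type for the 13 tested members in genome order, for the initial (light) and the final (dark) harvest. SE bars are derived from edgeR's fold change and F statistic. Filled points are called at an adjusted p under 0.05: 4 at the initial harvest and 2 at the final harvest, all below 0.

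Averaged over both harvests, 6 members were called, 4 lower and 2 higher in the knock-out. Of all tested genes 30.1% were called in this comparison, 16.1% lower and 14% higher. It uses the same 12 libraries as the comparisons at each harvest and is no separate evidence. The lower members were PCDHB13 (log2 fold change -1.76, SE 0.286, edgeR adjusted p = 0.000175), PCDHGB2 (-0.94, SE 0.182, 0.000874), PCDHAC1 (-0.49, SE 0.104, 0.00174) and PCDHGA9 (-0.60, SE 0.168, 0.0119). These 4 calls held when any 1 of the 12 libraries was left out. The members called higher were PCDHB10, a beta gene of 3 to 15 counts per library, at 0.99 (SE 0.342, edgeR adjusted p = 0.0389), and PCDHGA10 at 0.24 (SE 0.0885, edgeR adjusted p = 0.0485). PCDHB10 had entered the test through 3 knock-out libraries and no wild-type library, so its place among the members called higher is no support for a difference. It had 3, 4 and 7 counts in wild type initial and 4, 12 and 6 in knock-out initial, which overlapped. Its interaction with time was 0.63 (SE 0.701, edgeR adjusted p = 0.764). The PCDHB10 call was lost in 8 of 12 fits that left out 1 library and the PCDHGA10 call in 9 of 12, with adjusted p up to 0.167 and 0.132.

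The make-up of a cluster followed these genes. PCDHB13 gave 20.8% to 31.8% of the beta counts in the 6 wild-type libraries and 2.78% to 14.4% in the 6 knock-out libraries. PCDHGB2 gave 4.38% to 8.85% of the gamma counts in wild type and 2.36% to 4.08% in the knock-out. Neither share overlapped between genotypes. Both genes had been called lower from these same counts, so their shares are no separate evidence. PCDHGA10 took 70.7% to 77.4% of the gamma counts in wild type and 76.8% to 80.9% in the knock-out, where the ranges overlapped narrowly. The PCDHAC2 share of alpha was 57.4% to 66.6% in wild type and 60.2% to 69.0% in the knock-out and overlapped. Shares within a cluster are tied to each other, so a larger share of PCDHGA10 and a smaller share of PCDHGB2 are not separate facts.

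Culture for 2 months changed no member past the threshold in either genotype. In wild type 0 of 13 members were called, against 6.47% of all tested genes, and in the knock-out 0 of 13, against 1.48%. The ranges of the harvests were separate for 3 members in wild type (22.2% of all tested genes) and for 0 in the knock-out (23.2%). At an unadjusted p under 0.05, edgeR, DESeq2 and limma-voom each listed PCDHGA1 and PCDHGA9 in wild type and none in the knock-out. PCDHGA1, a gamma A gene, had 8, 9 and 3 counts in wild type initial and 20, 19 and 12 in wild type final. The harvests did not overlap, and the log2 fold change was 1.43 (SE 0.418, edgeR adjusted p = 0.0534). It was called with no filter on low counts and with a filter of at least 10 counts in every library of a group (edgeR adjusted p 0.0242 and 0.0485). With the replicate number added to the model it was also called (edgeR adjusted p = 0.0225), although these numbers do not pair the samples across all 4 groups. PCDHGA1 had passed the main filter through 3 wild type final, 1 knock-out initial and 2 knock-out final libraries and 0 wild type initial libraries. The stricter filter was met in the final groups only. Its place among the tested members is thus no support for a rise. In the knock-out it had 9, 11 and 8 counts at the initial and 14, 23 and 10 at the final harvest, which overlapped (0.74, SE 0.397, edgeR adjusted p = 0.406). PCDHGA9 went from 36, 37 and 50 counts in wild type initial to 25, 26 and 21 in wild type final, a log2 fold change of -0.68 (SE 0.223, edgeR adjusted p = 0.0869). In the knock-out it stood at 20, 20 and 15 and then at 20, 26 and 25 counts.

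Whether the genotype difference itself changed between harvests was tested as an interaction. No member was called (0 of 13, against 1.28% of all tested genes). At an unadjusted p under 0.05, edgeR, DESeq2 and limma-voom each listed PCDHGA9 alone. Its difference moved from -1.13 to -0.08 between harvests, an interaction of 1.04 (SE 0.337, edgeR adjusted p = 0.177). The calls of PCDHGA9 and PCDHAC1 at the initial harvest and not at the final harvest are thus not shown to differ between harvests. For PCDHAC1 the interaction was 0.25 (SE 0.208, edgeR adjusted p = 0.672), and for PCDHGB2 it was -0.01 (edgeR adjusted p = 0.999). No SE is given for PCDHGB2, because an SE derived from the fold change and F statistic is unreliable this near 0.

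Genes of the surrounding pathway were read in the comparison averaged over harvests, in which 30.1% of all tested genes were called. CTCF and the cohesin complex hold the loops between enhancers and protocadherin promoters. Of these and their regulators 2 of 14 were lower and none higher: the cohesin subunits SMC3 (log2 fold change -0.28, edgeR adjusted p = 0.000786) and STAG2 (-0.23, edgeR adjusted p = 0.0106). CTCF itself was at 111 ± 5.22 CPM in wild type initial and 112 ± 5.15 in knock-out initial (SD, n = 3), with an average log2 fold change of 0.05 (edgeR adjusted p = 0.568). Of 16 DNA methylation and silencing factors 5 were lower and none higher. The lowest adjusted p belonged to SMCHD1, a chromosome-structure protein known to repress the clusters, with a log2 fold change of -0.72 (edgeR adjusted p = 7.07e-07). SMCHD1 stood at 139 ± 18.4 and 135 ± 5.90 CPM in wild type initial and final and at 79.7 ± 1.41 and 87.1 ± 8.95 in the knock-out groups. The histone methyltransferase EHMT2 (-0.26, edgeR adjusted p = 0.00361) and ATF7IP (-0.25, edgeR adjusted p = 0.0171), a cofactor of histone H3 lysine methylation, were lower by less.

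Proteins that carry protocadherin signals in the cytoplasm changed in both directions, with 6 of 14 lower and 2 higher. The kinase FYN had a log2 fold change of -0.80 (edgeR adjusted p = 5.52e-07), and the actin-binding protein MARCKS of -0.66 (edgeR adjusted p = 0.00287). WASF3, a subunit of the actin-regulating WAVE complex, was higher by 0.59 (edgeR adjusted p = 0.000254). Of 7 genes for shedding and intramembrane cleavage of protocadherins 2 were lower, among them the gamma-secretase subunit PSENEN (-0.41, edgeR adjusted p = 0.000514). The sheddase ADAM10 was higher (0.27, edgeR adjusted p = 0.0291).

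Among protocadherins outside the clusters, 4 of 11 listed genes were tested, and PCDH12 (log2 fold change 0.67, edgeR adjusted p = 0.000237) and PCDH19 (0.69, edgeR adjusted p = 0.00082) were higher in the knock-out. PCDH12 stood at 3.79 ± 0.838 and 3.62 ± 0.340 CPM in wild type initial and final and at 5.93 ± 0.731 and 5.87 ± 0.679 in the knock-out groups (SD, n = 3). PCDH12 also lies among the 10 nearest tested genes downstream of the gamma cluster. Of those 10 genes 2 were higher and 1 lower, and the nearest, DIAPH1, had a log2 fold change of 0.01 (edgeR adjusted p = 0.959). Of the 10 nearest tested genes upstream of the alpha cluster 1 was higher and 1 lower. The nearest, VTRNA1-3, is a short vault RNA that poly-A libraries capture poorly. It stood at 0.107 ± 0.0131 CPM in wild type initial and at 0.437 ± 0.149 in knock-out initial. Averaged over both harvests, its log2 fold change was 1.46 (edgeR adjusted p = 0.00189). The wild type initial level lay under the filter minimum of 0.253 CPM. The place of VTRNA1-3 among the tested genes is thus no support for a difference. Of 3 other tested genes between the members none was called, and TAF7, a subunit of the general transcription factor TFIID that lies between the beta and gamma clusters, had a log2 fold change of -0.11 (edgeR adjusted p = 0.135).

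Markers of the cell state moved with the genotype too. In the averaged comparison, in which 16.1% of all tested genes were lower and 14% higher, 5 of 7 tested colon epithelial markers were lower in the knock-out, among them CDH1 (log2 fold change -0.72, edgeR adjusted p = 1.98e-05), CLDN4 (-0.50, edgeR adjusted p = 0.000417) and EPCAM (-0.34, edgeR adjusted p = 0.00152). The 8 epithelial markers summed to 3074 to 3721 CPM in wild type initial, 3474 to 3830 in wild type final, 2854 to 3047 in knock-out initial and 2546 to 2928 in knock-out final. Of 4 tested neuron markers SYP was higher (2.18 and 1.79 CPM in wild type initial and final, 4.31 and 3.62 in the knock-out groups, edgeR adjusted p = 1.3e-05) and SNAP25 (-1.10, edgeR adjusted p = 0.0011) and SYT1 (-0.24, edgeR adjusted p = 0.00419) were lower. The 8 neuron markers summed to 180 to 214 CPM in wild type initial, 163 to 172 in wild type final, 137 to 145 in knock-out initial and 167 to 185 in knock-out final, nearly all of it SYT1. Of 3 tested fibroblast markers PDGFRB was higher (1.02, edgeR adjusted p = 0.000172) and COL1A1 (-0.54, edgeR adjusted p = 0.000288) and COL3A1 (-1.67, edgeR adjusted p = 0.000289) were lower. The 8 fibroblast markers summed to 56.8 to 69.9 CPM in wild type initial, 60.3 to 78.8 in wild type final, 37.5 to 48.3 in knock-out initial and 43.4 to 59.3 in knock-out final. The part of these markers, and of SMCHD1, in the protocadherin differences was not tested.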

How the data were processed

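The deposited table holds raw read counts per gene for 12 libraries, with gene lengths and exon coordinates, written by featureCounts per the file headers; the gene length in bases is also the authors' value. STAR, featureCounts from Subread and hg38 are named by the submitters' processing notes, without versions. Annotation release, strandedness and treatment of multi-mapping reads were not given in the sources used here. Of 60653 lines, 5 broken lines were left out.

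Genes were kept with filterByExpr by group (18289 genes), scaled with TMM factors and fitted in 1 quasi-likelihood model of 4 group means by edgeR 4.0.16 under R 4.3.3, with limma 3.58.1 loaded and with Benjamini-Hochberg adjustment over all genes tested and 6 comparisons. CPM uses TMM-scaled totals. Unique bases are exonic bases that no other gene of the table covers on either strand. The method was checked on simulated counts. Alternatives were other scalings, other filters, DESeq2 1.42.0, limma-voom, a replicate block and leaving out each library.

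The members and gene lists were chosen with earlier results of these data known. Values in every library are given for members called in any comparison and for the 2 highest members of each cluster, plus PCDHGA1, chosen after its values were seen. Up to 3 genes are named per list by adjusted p in the averaged comparison, plus CTCF; 1 such gene is not reported here. Gene symbols came from the reference annotation; promoter sequences came from RefSeq.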

Additional observations from a re-analysis of the deposited data

How the results depend on the processing

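Most results kept their direction and their side of the threshold, and no called member changed sign. Some values near 0 did: when single libraries were left out, the log2 ratio of the alpha sum at the final harvest ran from -0.13 to 0.02, that of the beta sum there from -0.03 to 0.20, that of the gamma sum initially from -0.07 to 0.13, and the log2 fold change of PCDHGA9 at the final harvest from -0.19 to 0.02. The count of members called had these exceptions. At the final harvest it rose from 2 to 4 (2 higher, 2 lower) when library totals replaced the scaling factors, by PCDHB10 and PCDHGA10, and it ran from 1 to 3 when single libraries were left out. For time in wild type it rose from 0 to 1 with library totals (PCDHGA9), without a filter on low counts, with at least 10 counts in every library of a group, and with the replicate block (PCDHGA1 in these 3 settings), and ran from 0 to 1 when single libraries were left out: PCDHGA1 was called without WTT0 replicate 2, KOTF replicate 2 or KOTF replicate 3. Leaving out single libraries gave 3 to 4 members at the initial harvest, 4 to 5 averaged over harvests and 0 to 0 for time in the knock-out and for the interaction. Without its highest member, the alpha cluster had a log2 ratio of knock-out to wild type of -0.57 initially and -0.28 at the final harvest, against -0.35 and -0.06 with it. For gamma the sign turned, to -0.39 and -0.20 from 0.03 and 0.20. PCDHB10 averaged over harvests missed the threshold without a filter (edgeR adjusted p = 0.0624) and in DESeq2 (adjusted p = 0.079). The causes were not tested.

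Libraries with the same replicate number deviated together between some groups and not between others. The correlation of their deviations from the group means ran from -0.527 to 0.446 (median 0.06), with 8 of 18 pairs above 0.1. For replicates 1, 2 and 3 it was 0.322, 0.225 and -0.001 between wild type initial and knock-out initial. Between knock-out initial and knock-out final it was -0.334, -0.275 and 0.048. Between wild type final and knock-out final it was -0.366, -0.279 and 0.137. Pairs of different number reached 0.641. The numbers thus do not pair the samples across all 4 groups, and a structure shared by some groups was not tested. With the replicate block, the initial comparison called 4 members, the final one 3 (PCDHGA10 added, edgeR adjusted p = 0.0468), the averaged one 5 (PCDHB10 lost, edgeR adjusted p = 0.0535), and there were 1 for time in wild type (PCDHGA1, edgeR adjusted p = 0.0225), and 0 for time in the knock-out and the interaction.

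Depth limits what can be said of 40 members below the filter, and reads in shared exons that were not counted limit the alpha and gamma levels.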

Other observations

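Some members below the filter were named after their values had been seen, from a fit without a filter on low counts. PCDHA7, a variable alpha gene, had 1 to 3 counts in each of the 6 knock-out libraries (12 in all) and 0 in each of the 6 wild-type libraries. Both groups are at or under 3 counts per library, so no fold or test is given and no difference is read from these counts. PCDHGB1, the gamma gene that starts between PCDHGA3 and PCDHGA4, had 6 counts over the knock-out libraries and 25 over the wild-type libraries (edgeR adjusted p = 0.0161). PCDHGA3 had 2 and 15 counts (edgeR adjusted p = 0.0369). Being chosen after their values were seen, these genes carry no evidence of a difference.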
